A study of Mus musculus with 6 samples.

Results

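The 35 genes described here encode the machinery of autophagy and parts of the lysosome. They were taken by name from the deposited comparison of Yy1 knockout with wild type, and all 35 were found among its 15553 genes. The data are RNA sequencing of hematopoietic stem and progenitor cells, sorted from the bone marrow of C57BL/6 mice 6 to 8 weeks old. The 3 control libraries, called wild type, came from animals whose genotype is given as Mx1-Cre, and the 3 knockout libraries from Yy1f/f;Mx1-Cre animals, so the Cre transgene was common to both groups. Mx1-Cre is a recombinase under an interferon-inducible promoter that is also active outside blood cells. The protocol names CD150-positive and CD150-negative gates within cells that carry Sca1 and c-Kit but neither lineage markers nor CD48, while the source field names a CD150-positive gate. Which gate a library holds is not settled. Whether every library came from an animal of its own is not stated either, so p-values measure the spread between these libraries, which may be technical.

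Values are RPKM, reads scaled by gene length and library size. Library sizes recovered from these values ranged from 12920191 in wild type replicate 1 to 19535461 in knockout replicate 3. Reads estimated from RPKM and gene length, summed over the listed genes, came to 15102984 and 21757041 in these libraries. In every library that sum exceeded the recovered library size, so the sums are estimates and not read counts. The genes of the sort gate were present: Kit stood between 76.6 and 140 RPKM and Slamf1, which encodes CD150, between 2.21 and 5.96 RPKM, while Cd48 lay between 0 and 3.76 RPKM. Yy1 stood at 31.6, 42.3 and 52.1 RPKM in wild type replicates 1 to 3, against 36.2, 16.6 and 28.5 RPKM in knockout replicates 1 to 3. The library labelled knockout replicate 1 therefore lay inside the wild-type range at the targeted gene, and the labels do not give the deleted part of Yy1. Wild type replicate 3 stood away from the other libraries on the leading principal component (34.6% of variance).

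Autophagy encloses cytoplasm in a double membrane and delivers it to the lysosome for breakdown. A kinase complex around ULK1 starts the process, a lipid kinase complex marks the membrane with PI3P, and ubiquitin-like conjugation attaches LC3 and GABARAP proteins to the growing membrane, where cargo receptors dock. The transcription factors TFEB and TFE3 bind an E-box motif in the promoters of many autophagy and lysosome genes. In hematopoietic stem cells, autophagy is known for clearing mitochondria and for maintaining cells at rest.

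The E-box letters CACGTG, searched as printed because they read the same on both strands, are shown first because they single out a few members. RefSeq promoters on GRCm38.p6, each running from 250 bases before to 50 bases after the start, were matched for 28 of the 35 members, with 32 promoters in all. Becn1, Pik3c3, Rb1cc1, Atg12, Atg16l1, Map1lc3a and Ctsb had no matched promoter and were not searched. CACGTG was found in 6 of the 32 (18.8%), against 9.97% of the 12297 promoters of genes in the deposited table. The longer form GTCACGTG, searched on both strands and always overlapping the shorter one, was found in 5 of the 32 (15.6%) against 4.10%. The letters AAGATGGCG, part of the consensus bound by YY1 and searched on both strands, were found in 1 of the 32 (3.12%), that of Atg4b, against 2.98%. The matching stretches before the start read as follows, 5′ to 3′ on the strand of the gene, with capitals for CACGTG or its longer form.
Lamp1, chr8:13159080-13159160, plus strand: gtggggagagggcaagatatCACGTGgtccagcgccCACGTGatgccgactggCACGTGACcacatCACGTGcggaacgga
Ctsd, chr7:142387906-142388077, minus strand: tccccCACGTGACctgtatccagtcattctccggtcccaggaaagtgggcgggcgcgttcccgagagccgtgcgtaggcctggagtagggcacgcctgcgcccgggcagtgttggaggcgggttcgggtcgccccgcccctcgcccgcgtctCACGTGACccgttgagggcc
Atg3, chr16:45158715-45158777, plus strand: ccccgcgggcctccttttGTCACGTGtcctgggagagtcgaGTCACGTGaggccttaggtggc
Atg7, chr6:114670944-114670983, plus strand: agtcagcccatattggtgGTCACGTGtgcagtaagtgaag
Atg5, chr10:44268305-44268338, plus strand: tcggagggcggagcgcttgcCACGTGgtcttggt
The stretch of Lamp1 held 4 copies, and those of Ctsd and Atg3 held 2 each. In Atg14, the remaining member with a match, the letters lay across the start itself. For Atg7, Atg14 and Atg4b the RefSeq start used here lies inside the gene as the GENCODE M21 annotation has it. There Atg7 begins at 114643097, and Atg14, on the minus strand, begins at 47570649, with its promoter here at 47568385 to 47568684. Atg4b, the member with the YY1 letters, begins there at 93751500, with its promoter here at 93754655 to 93754954. A match of letters is a description and not evidence of binding.

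No autophagy or lysosome gene passed the test for a difference between genotypes. In limma on log2(RPKM + 0.5), with Benjamini-Hochberg adjustment over the 13179 genes that reached 1 RPKM in 3 or more libraries, 0 of the 34 tested members had an adjusted p under 0.05. Across all genes the count was likewise 0 (0%). Atg9a, the remaining member, did not reach the filter. At an unadjusted p under 0.05, 1 member lay lower in knockout, Lamp1, where 3.06% of all tested genes did, and 0 members lay higher, where 4.73% did. The 3 knockout values lay wholly below the wild-type values in 3 members, where 6.87% of all genes did so, and wholly above them in 2 members, where 7.63% did. The members' shares were thus close to those of all genes. Both counts moved with single libraries. The 1 member under an unadjusted p of 0.05 in limma became 0 with knockout replicate 1 or wild type replicate 1 left out, 2 with wild type replicate 2 left out, and 3 with wild type replicate 3 or knockout replicate 3 left out. The 5 members without overlap became 12 with wild type replicate 2 left out and 8 with wild type replicate 3 or knockout replicate 3 left out, where fewer values have to be separated. A limma-voom fit on reads recovered from the RPKM values called 0 of 34 members and 8 of 13114 genes (0.0610%). At an unadjusted p under 0.05, that fit held 2 members, Lamp1 and Wipi2.

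The members lay slightly below 0 as a group, though not in every knockout library. Of the 34, 21 had a log2 fold change below 0 and 13 above, with a median of -0.10 against 0.02 for all tested genes. The members ranged from -0.62 to 0.43, and 27 of the 34 (79.4%) lay within 0.5 of 0, where 65.1% of all tested genes did. Measured as the mean of log2(RPKM + 0.5) against the wild-type mean, the tested members averaged 0.02, 0.01 and -0.04 across wild type replicates 1 to 3 but -0.24, 0.03 and -0.13 across knockout replicates 1 to 3. Knockout replicate 1, the library with Yy1 in the wild-type range, was thus the lowest, and without it the median of the members was -0.06. By the same measure, all tested genes averaged 0.03, 0.08 and -0.11 across wild type replicates 1 to 3. Across knockout replicates 1 to 3 they averaged 0.03, 0.12 and 0.05. The members thus lay below all genes in each knockout library, and also in wild type replicates 1 and 2. The median half-width of the unadjusted 95% confidence interval of a member was 0.82 on the log2 scale. Smaller changes were thus mostly not detectable with 3 libraries a genotype even at an unadjusted p under 0.05. The adjusted threshold is stricter.

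**Figure D1:**
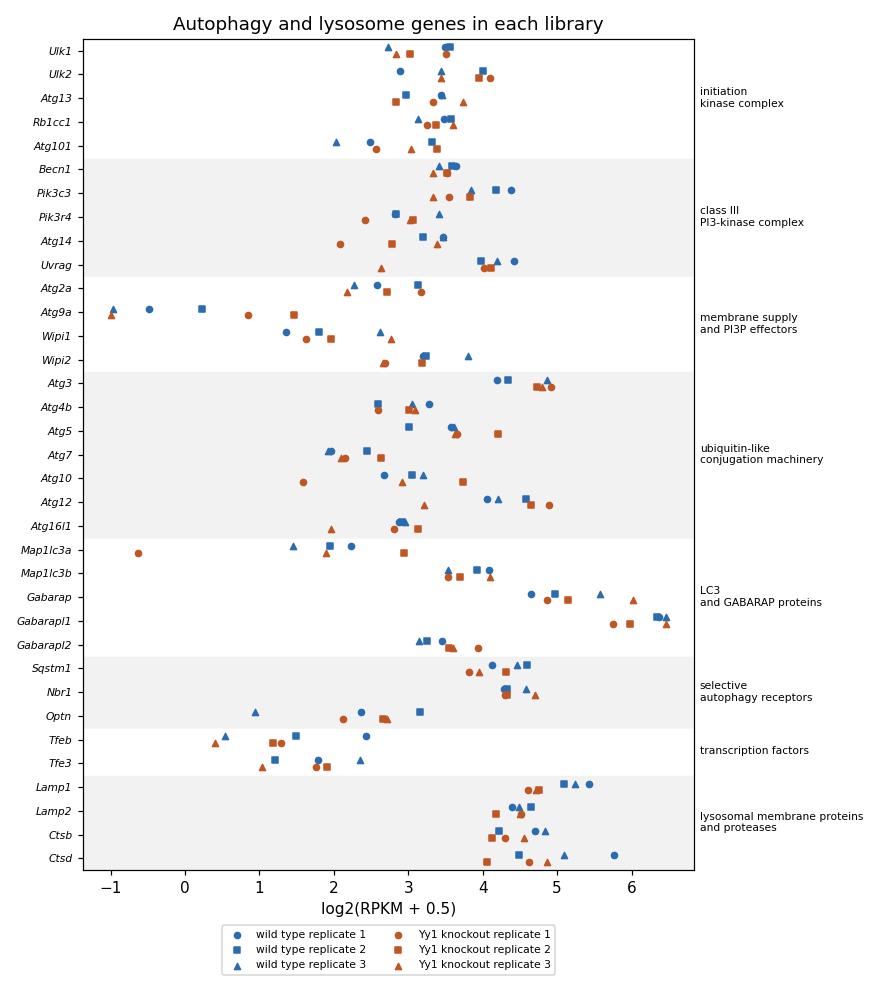
Level of each of the 35 members in each library, as log2(RPKM + 0.5) on the horizontal axis, with wild type in blue, Yy1 knockout in orange and 1 marker shape per replicate number. Gabarapl1 is the highest, at 53.4 to 87.7 RPKM, Atg9a is the lowest, and the genotypes overlap in most rows.

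The authors' deposited table gave a similar count. In the authors' deposited table, 0 of the 35 members had an adjusted p under 0.05, where 0.154% of the 15553 genes did. In the authors' deposited table, 1 member, Wipi2, had an unadjusted p under 0.05 and a lower value in knockout (log2 fold change -0.60, p = 0.0374, adjusted p = 0.601), where 3.41% of genes did, and 0 members had a higher value, where 4.61% did. Lamp1 stood at -0.56 in the authors' deposited table, with an unadjusted p of 0.0610 there.

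Lamp1 was the member with the clearest separation. It encodes an abundant glycoprotein of the lysosomal membrane and lies on chromosome 8 from 13159161 to 13175338 (ENSMUSG00000031447, GENCODE M21 on GRCm38). Lamp1 stood at 42.7, 33.5 and 37.4 RPKM in wild type replicates 1 to 3, against 23.9, 26.6 and 25.8 RPKM in the knockout replicates. Every knockout library lay below every wild-type library, and the gap between the nearest values was wider than the whole knockout range. Mean levels came to 37.8 ± 4.60 against 25.4 ± 1.42 RPKM (SD, n = 3 per genotype, as for all later means), a wild-type to knockout ratio of 1.49. In limma the log2 fold change was -0.56 (standard error 0.18, 95% interval -0.99 to -0.13), at an unadjusted p of 0.0173 and an adjusted p of 0.560, so it did not pass. The unadjusted p of Lamp1 in limma was 0.0585 with wild type replicate 1 left out, 0.0545 with knockout replicate 1 left out and 0.0510 with no variance trend. In bulk RNA such as this, a lower share of cells that express a gene and less RNA per cell cannot be told apart. The exons of Lamp1 share 249 bases with those of Grtp1 on the opposite strand, and reads there cannot be assigned without a known strand setting.

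The other lysosomal members differed less or spread more. Lamp2, on the X chromosome, encodes the second major lysosomal membrane glycoprotein and a receptor of chaperone-mediated autophagy. Lamp2 measured 20.5, 24.7 and 21.9 RPKM in wild type against 22.3, 17.6 and 22.2 RPKM in knockout, with overlapping genotypes and a 95% interval of -0.60 to 0.37 around a log2 fold change of -0.11. Ctsd, the aspartic protease cathepsin D, measured 53.8, 21.9 and 33.6 RPKM in wild type against 24.2, 16.1 and 28.7 RPKM in knockout. Wild type replicate 1 held the highest Ctsd value and the genotypes overlapped, with a log2 fold change of -0.60 and a 95% interval of -1.44 to 0.25. Without wild type replicate 1 the Ctsd log2 fold change was -0.27, and without wild type replicate 2 it was -0.91. The exons of Ctsd share 808 bases with Gm49369 on the same strand. Ctsb, the cysteine protease cathepsin B, measured 25.5, 18.1 and 28.1 RPKM in wild type against 19.2, 16.9 and 22.9 RPKM in knockout, again with overlap. All 4 lysosomal members had a log2 fold change below 0, with a median of -0.41, or -0.24 with wild type replicate 1 left out and -0.26 with knockout replicate 2 left out. Their summed RPKM was 142, 98.2 and 121 in wild type against 89.5, 77.2 and 99.6 in knockout, so the sums overlapped.

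The 5 members of the class III PI3-kinase complex, which makes the PI3P that marks the forming membrane, all had log2 fold changes below 0, with a median of -0.57. The median was -0.28 with knockout replicate 3 left out and -0.29 with knockout replicate 1 left out, and lay between -0.64 and -0.44 with any other library left out. Pik3c3, the catalytic lipid kinase VPS34, measured 20.3, 17.6 and 13.9 RPKM in wild type against 11.2, 13.7 and 9.61 RPKM in knockout. The genotypes did not overlap in Pik3c3, though wild type replicate 3 and knockout replicate 2 nearly met. The Pik3c3 log2 fold change was -0.57 (standard error 0.26) with a limma adjusted p of 0.664, and its unadjusted p was 0.0641, or 0.0336 without wild type replicate 3. Atg14, which directs the complex to autophagosome formation, measured 10.6, 8.64 and 10.6 RPKM in wild type against 3.75, 6.39 and 9.96 RPKM in knockout. Knockout replicate 1 was the lowest and knockout replicate 3 lay inside the wild-type range. The Atg14 log2 fold change was -0.62 at an unadjusted limma p of 0.150, or -0.94 at 0.0461 with knockout replicate 3 left out. Uvrag, which directs the complex to endosomes, measured 20.9, 15.2 and 17.7 RPKM in wild type against 15.7, 16.8 and 5.69 RPKM in knockout. Only knockout replicate 3 lay below wild type, and over the 15 alternative settings the Uvrag log2 fold change ran from -0.87 to -0.13.

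Becn1 and Pik3r4 encode the scaffold and regulatory subunits of the same complex. Becn1, the gene of Beclin 1, measured 12, 11.5 and 10.1 RPKM in wild type against 11, 11 and 9.56 RPKM in knockout, and it had the smallest spread over the 6 libraries of all members. The highest Becn1 value was 1.26 times the lowest, and its 95% interval was -0.66 to 0.48 around -0.09. The exons of Becn1 share 3104 bases with Cntd1 on the opposite strand. Pik3r4 stood between 6.59 and 10.1 RPKM in wild type and between 4.82 and 7.84 RPKM in knockout. The summed RPKM of the 5 genes was 70.4, 59.5 and 62.4 in wild type against 46.4, 55.7 and 42.4 in knockout, without overlap.

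The initiation kinase complex differed little between genotypes, with a median of 0.01 on the log2 scale over its 5 members and 0 of 5 past an unadjusted p of 0.05. Ulk1, the kinase that starts autophagy, measured 10.8, 11.3 and 6.13 RPKM in wild type against 10.9, 7.62 and 6.64 RPKM in knockout, with full overlap. Ulk2, its paralog, measured 6.90, 15.5 and 10.3 RPKM in wild type against 16.6, 14.9 and 10.3 RPKM in knockout. The paralogs were thus at similar levels per length, with Ulk1 at 9.39 ± 2.83 and Ulk2 at 10.9 ± 4.31 RPKM in wild type. Rb1cc1, which encodes the large scaffold FIP200, stood at 10.1 ± 1.64 and 10.2 ± 1.31 RPKM, the closest pair of means in the complex. Atg13, an adaptor of the kinase, stood at 9.37 ± 1.77 and 9.68 ± 3.11 RPKM, and Atg101, its binding partner, at 6.05 ± 3.07 and 7.72 ± 2.31 RPKM.

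**Figure D2:**
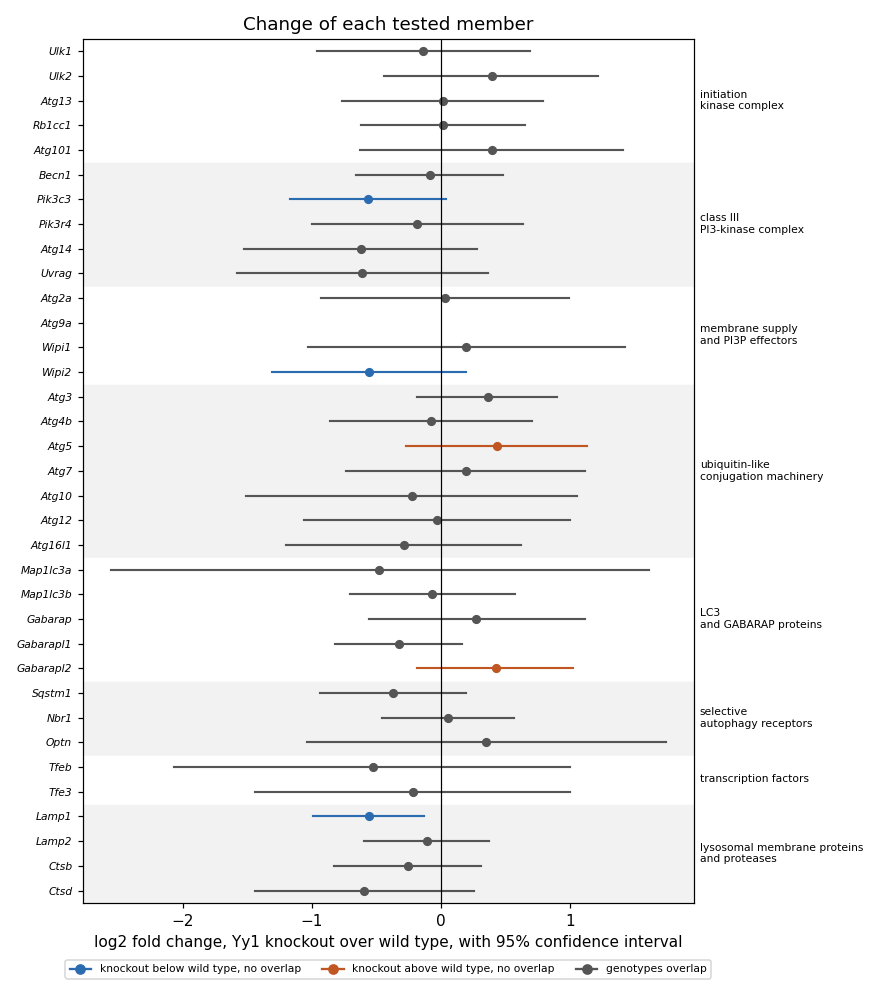
Log2 fold change of Yy1 knockout over wild type for the 34 tested members, with 95% confidence intervals from limma, grouped by role, blue where all knockout values lie below wild type, orange where they lie above and grey where the genotypes overlap. The interval of Lamp1, -0.99 to -0.13, is the only one that leaves out 0.

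Among genes that supply membrane or read PI3P, Wipi2 lay lower in knockout without passing. Wipi2, a PI3P-binding protein that recruits the conjugation machinery, measured 8.67, 8.89 and 13.4 RPKM in wild type against 5.96, 8.58 and 5.84 RPKM in knockout. The genotypes did not overlap, but knockout replicate 2 lay just under wild type replicate 1. The Wipi2 log2 fold change was -0.56 (standard error 0.32) with a limma adjusted p of 0.735, and limma-voom gave an unadjusted p of 0.0462 and an adjusted p of 0.632. Its relative Wipi1 went the other way in mean, with 3.56 ± 1.86 and 4.09 ± 1.96 RPKM and overlap. Atg2a, a lipid transfer protein, stood at 6.02 ± 2.01 and 6.19 ± 2.24 RPKM. Atg9a, the membrane-spanning lipid scramblase, was covered by 16, 62 and 1 reads in wild type and by 129, 229 and 0 reads in knockout, too few and too uneven to compare. The exons of Atg9a share 1832 bases with Gm29253 on the same strand and 46 bases with Ankzf1 on the opposite strand. The part of these overlaps in its low counts was not tested.

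In the conjugation machinery, 3 of 7 members lay above 0 and 4 below, and the median was -0.03 on the log2 scale. That balance turned with 1 library: 5 lay above 0 and 2 below with knockout replicate 1 left out, at a median of 0.26, and likewise with knockout replicate 3 left out, at 0.28. Leaving out wild type replicate 1 or 2 gave 4 above and 3 below, with medians of 0.07 and 0.12. Atg5, which joins ATG12 in the conjugate that promotes LC3 attachment, measured 11.4, 7.55 and 11.8 RPKM in wild type against 12.1, 17.9 and 11.9 RPKM in knockout. Every knockout value of Atg5 lay above wild type, but 2 of them lay just above the highest wild-type values. The Atg5 log2 fold change was 0.43 (standard error 0.30) with a limma adjusted p of 0.774, and it was 0.25 without knockout replicate 2. Atg3, the E2-like enzyme that passes LC3 to the lipid, measured 17.8, 19.7 and 28.5 RPKM in wild type against 29.8, 26.0 and 27.4 RPKM in knockout. Wild type replicate 3 lay within the knockout range of Atg3, and without that library the log2 fold change was 0.55 at an unadjusted limma p of 0.0304.

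The remaining conjugation genes overlapped between genotypes. Atg7, the E1-like enzyme at the head of both conjugation routes, stood at 3.86 ± 0.926 and 4.46 ± 1.07 RPKM. Atg4b, the protease that primes LC3 and removes it from the lipid, stood at 7.51 ± 1.87 and 7.02 ± 1.30 RPKM. Atg16l1, which places the ATG12-ATG5 conjugate on the membrane, stood at 6.87, 7.03 and 7.23 RPKM in wild type, the tightest wild-type group of all members, and at 6.48, 8.23 and 3.39 RPKM in knockout. Atg12, the ubiquitin-like partner of ATG5, stood at 16.2, 23.5 and 18.0 RPKM and at 29.1, 24.7 and 8.75 RPKM, so the knockout libraries lay on both sides of wild type. Atg10, the E2-like enzyme for ATG12, spread likewise, with 2.50, 12.8 and 7.03 RPKM in knockout around a wild-type range of 5.87 to 8.70 RPKM. The 3 members with CACGTG letters in this group, Atg3, Atg5 and Atg7, had log2 fold changes of 0.36, 0.43 and 0.19, while those of Lamp1, Ctsd and Atg14 were -0.56, -0.60 and -0.62. Atg12 and Atg16l1 were not searched for the letters.

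The LC3 and GABARAP genes encode the small proteins that are attached to the autophagosome membrane, and they differed in level far more than between genotypes. Gabarapl1 was the highest member of all, with 82.5, 81.0 and 87.4 RPKM in wild type against 53.4, 62.7 and 87.7 RPKM in knockout. Knockout replicates 1 and 2 lay below the wild-type libraries and knockout replicate 3 above them, with a log2 fold change of -0.33, or -0.53 without knockout replicate 3 at an unadjusted limma p of 0.0228. Gabarap followed at 24.6, 31.0 and 47.1 RPKM in wild type against 28.5, 34.8 and 64.4 RPKM in knockout, with wild type replicate 3 and knockout replicate 3 the highest of their genotypes. Map1lc3b, the gene of LC3B and the usual marker of autophagosomes, measured 16.5, 14.6 and 11.1 RPKM in wild type against 11.1, 12.5 and 16.6 RPKM in knockout. Both genotypes covered nearly the same range of Map1lc3b, and its 95% interval was -0.71 to 0.57 on the log2 scale.

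Gabarapl2 was the member of this family whose genotypes did not overlap. Gabarapl2 measured 10.4, 9.05 and 8.32 RPKM in wild type against 14.8, 11.2 and 11.6 RPKM in knockout. All knockout values lay above wild type, with a knockout to wild-type ratio of 1.36, a log2 fold change of 0.42, a standard error of 0.26 and a limma adjusted p of 0.749. Map1lc3a, the gene of LC3A, was covered by 64, 64 and 39 reads in wild type and by 3, 148 and 74 reads in knockout. Its knockout values spread from 0.146 to 7.16 RPKM, on both sides of the wild-type range. In wild type the family thus ran in level from Gabarapl1 through Gabarap, Map1lc3b and Gabarapl2 to Map1lc3a. In knockout Map1lc3b and Gabarapl2 stood close together, at 13.4 ± 2.89 and 12.5 ± 1.99 RPKM, a difference within their spread.

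Of the cargo receptors, Sqstm1 had the lower mean in knockout. Sqstm1, which encodes p62 and is itself degraded by autophagy as a protein, measured 17.0, 23.7 and 21.6 RPKM in wild type against 13.6, 19.3 and 14.9 RPKM in knockout. Knockout replicate 2 lay inside the wild-type range, and the Sqstm1 log2 fold change was -0.37 with a 95% interval of -0.94 to 0.19. Nbr1, a receptor related to p62, stood at 20.6 ± 2.39 and 21.4 ± 3.56 RPKM, with a 95% interval of -0.46 to 0.56. Optn, the receptor optineurin, spread from 1.42 to 8.38 RPKM within wild type alone and stood at 3.84, 5.83 and 6.08 RPKM in knockout.

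The transcription factors of the pathway were among the lowest members. Tfeb measured 4.90, 2.31 and 0.954 RPKM in wild type against 1.94, 1.76 and 0.822 RPKM in knockout, from 80 to 359 reads per library. The genotypes overlapped, wild type replicate 1 was the highest, and without it the Tfeb log2 fold change was -0.06 in place of -0.53. Tfe3 measured 2.96, 1.82 and 4.58 RPKM in wild type against 2.88, 3.25 and 1.54 RPKM in knockout, also with overlap. With intervals of -2.07 to 1 for Tfeb and -1.44 to 1 for Tfe3, changes of that size in either gene were within the error.

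**Figure D3:**
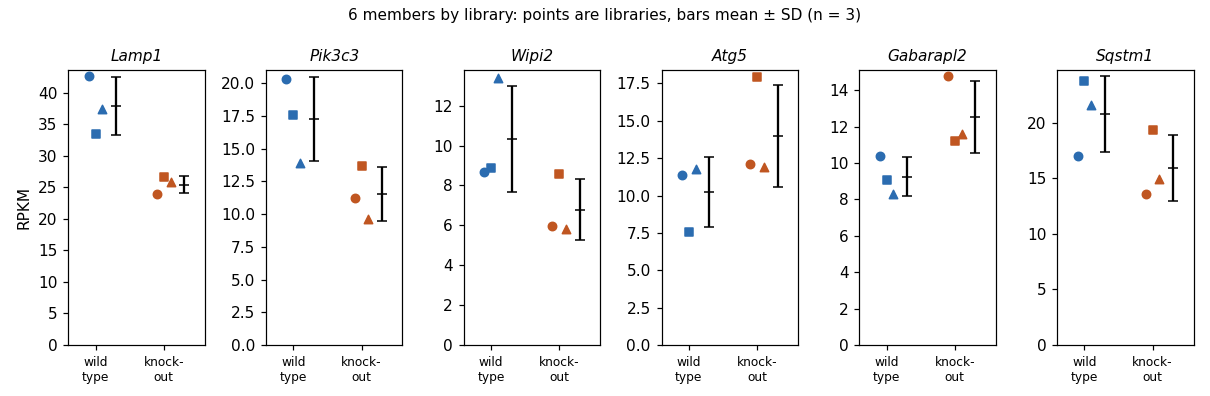
RPKM of the 5 members whose genotypes did not overlap and of Sqstm1, 1 point per library with marker shape for replicate number, and mean ± SD beside the points (n = 3 per genotype). Lamp1 shows a wide gap between genotypes, while in Pik3c3, Wipi2 and Atg5 the nearest libraries almost touch.

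Ranked by mean RPKM in wild type, the members ran from Gabarapl1 at 83.6 ± 3.35 through Lamp1 at 37.8 ± 4.60, Ctsd at 36.4 ± 16.2 and Gabarap at 34.2 ± 11.6, the last 3 of which did not differ beyond their spread. Ctsb, Lamp2, Atg3, Sqstm1 and Nbr1 followed between 20.6 and 23.9 RPKM, again within their spread. At the low end stood Map1lc3a at 3.26 ± 0.984, Tfe3 at 3.12 ± 1.39, Tfeb at 2.72 ± 2.01 and Atg9a at 0.298 ± 0.336 RPKM. In knockout Gabarapl1 stayed first at 67.9 ± 17.8 RPKM, Gabarap was second at 42.6 ± 19.1, followed by Atg3 at 27.8 ± 1.91 and Lamp1 at 25.4 ± 1.42. The median coefficient of variation of the tested members was 22.2% in wild type and 24.5% in knockout, against 35% and 27.8% for all tested genes.

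Other genes of the pathway, in 8 lists by role chosen with earlier results of these data known, held 170 genes in the table, of which 166 were tested. Of these, 0 had an adjusted p under 0.05, 3 were higher and 11 lower at an unadjusted p under 0.05 in limma, where 4.73% and 3.06% of all genes were, and 22 lay wholly below wild type in knockout (13.3%) and 3 wholly above, where 6.87% and 7.63% of all genes did. The 14 genes at an unadjusted p under 0.05 became 7 with wild type replicate 1 left out, 9 with knockout replicate 3, 11 with wild type replicate 3 and 12 with knockout replicate 1. Most of the lower genes stood in the lysosomal lists. Of 67 tested lysosomal hydrolase, membrane and transport genes, 9 were lower (13.4%) and 2 higher at an unadjusted p under 0.05 in limma, beside the 3.06% and 4.73% over all genes, and 14 lay wholly below wild type (20.9%), beside 6.87% over all genes. Their median log2 fold change was -0.15. With wild type replicate 3 left out the number of lower genes was 4, beside 3.31% of all genes. Leaving out wild type replicate 1 gave 5, beside 2.75%, and leaving out knockout replicate 1 gave 6, beside 2.30%. The CACGTG letters were in 15 of 68 promoters of these lists (22.1%), beside 9.97% of the promoters of genes in the deposited table. The longer form GTCACGTG was in 11 of the 68 (16.2%), beside 4.1%. The YY1 letters AAGATGGCG were in 4 of the 68 (5.88%), beside 2.98%. No test was made of these shares.

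Among the hydrolases, Ctsf, the protease cathepsin F, measured 11.2, 13.6 and 10.1 RPKM in wild type against 1.6, 4.37 and 4.22 RPKM in knockout. Its genotypes were far apart, with a log2 fold change of -1.73, a standard error of 0.43 and a limma adjusted p of 0.429. Aga, which cleaves sugar chains from asparagine, stood at 26.3, 16.3 and 15.8 RPKM and at 6.11, 9.49 and 11.5 RPKM. Ppt1, which removes fatty acids from proteins, stood at 18.8, 16.3 and 20.4 RPKM and at 9.67, 12.9 and 12.3 RPKM. Both were lower in every knockout library, with log2 fold changes of -1.07 and -0.65 and limma adjusted p of 0.556 and 0.589. Lgmn, the asparagine endopeptidase, went the other way, with 0.0333, 1.18 and 0 RPKM in wild type against 4.16, 1.43 and 4.69 RPKM in knockout. Within wild type Lgmn reached 1 RPKM only in replicate 2, so it passed the filter through its knockout libraries.

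Among the membrane genes, Cd63, a tetraspanin of late endosomes, measured 74.1, 74.3 and 138 RPKM in wild type against 26.6, 44.5 and 52.1 RPKM in knockout. Laptm4a, a small lysosomal membrane protein, stood at 95.1, 94.8 and 108 RPKM and at 34.3, 65.4 and 72.9 RPKM, and Tmem192 at 10.8, 12.6 and 25 RPKM and at 0.256, 3.92 and 7.79 RPKM. In these 3 genes every knockout library lay below wild type and knockout replicate 1 was the lowest, with log2 fold changes of -1.20, -0.85 and -2.36 and limma adjusted p of 0.481, 0.567 and 0.586. Cd68, a lysosomal membrane protein used as a macrophage marker, measured 0.0616, 2.72 and 0 RPKM in wild type against 2.06, 5.82 and 9.49 RPKM in knockout, with overlap. Cd68 also passed the filter of 1 RPKM through its knockout libraries.

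Macrophages also express Cd68 and Lgmn, and markers of other cell types are given beside them. Of 14 monocyte and macrophage markers, 7 were in the table, and their summed level was 2.30 to 5.11 RPKM in wild type and 3.45 to 9.70 RPKM in knockout. Most of the wild-type sum was Itgam, an integrin gene of myeloid cells, at 5.09, 2.31 and 2.15 RPKM in wild type against 2.50, 3.33 and 0.0883 RPKM in knockout. Without Itgam, left out after its values were seen, the other 6 markers summed to 0.0282, 0.429 and 0.148 RPKM in wild type against 0.949, 6.37 and 3.78 RPKM in knockout, without overlap. The sum in knockout replicate 1 was mostly Fcgr1, at 0.888 RPKM. Fcgr1 itself overlapped, at 0.384 RPKM in wild type replicate 2 and 0 in knockout replicate 3. Of these 6 markers, 4 were at 0 in every wild-type library: Mrc1, C1qb, Vcam1 and Ccr2. A gene at 0 in wild type can be listed only through its knockout values, so the direction of these 4 was fixed in advance. C1qb, a macrophage complement gene, was also at 0 in knockout replicate 1 and stood at 3.36 and 1.22 RPKM in knockout replicates 2 and 3. Granulocyte markers, 9 of 12 in the table, summed to 17.7 to 174 RPKM in wild type and 35.8 to 307 RPKM in knockout, highest in replicate 2 of both genotypes, while Elane and Mpo reached at most 3.23 and 4.10 RPKM. Megakaryocyte and platelet markers, 9 of 10 in the table, summed to 37.5 to 50.6 and 64.4 to 127 RPKM, without overlap. Of these, Pf4, Gp9 and Itga2b did not overlap, with Pf4 at 6.98, 11.1 and 3.75 RPKM against 49.0, 14.5 and 17.0 RPKM. Ppbp, Gp1ba, Gp1bb, Itgb3, Vwf and Treml1 overlapped between genotypes. The 10 stem and progenitor markers summed to 566 to 649 RPKM in wild type and 391 to 421 RPKM in knockout, sums that also did not overlap. The part of these cells in the levels of lysosomal genes was not tested.

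**Figure D4:**
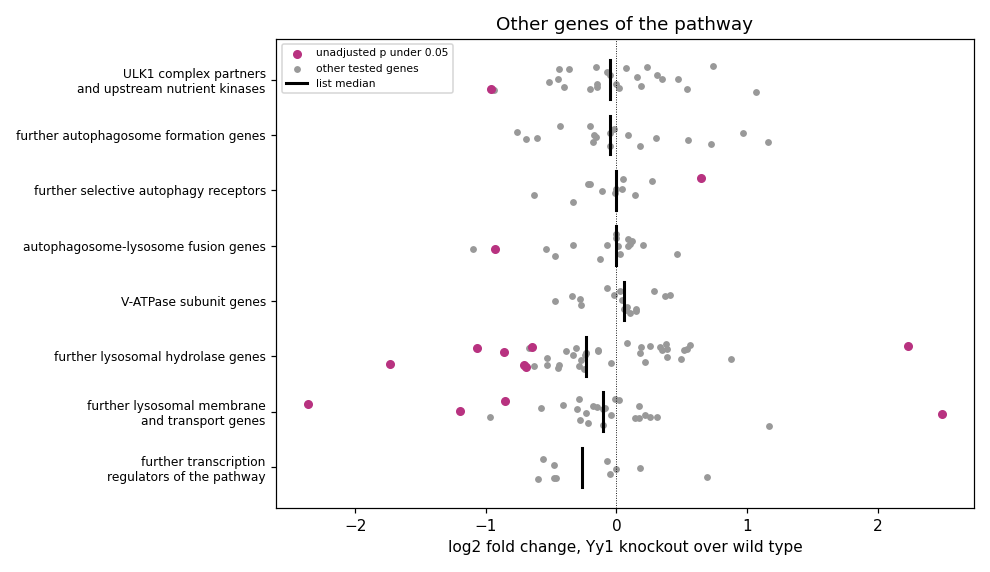
Log2 fold change of Yy1 knockout over wild type for the 166 tested genes of 8 further lists, 1 point per gene (vertical scatter is only for legibility), coloured where limma's unadjusted p is under 0.05, with a bar at each list's median. Coloured points lie mostly to the left in the lysosomal hydrolase and membrane lists, and the V-ATPase list has none.

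The other lists held few differences. The 17 tested V-ATPase subunits, which acidify the lysosome, centred on a log2 fold change of 0.06 (median), with 0 genes at an unadjusted p under 0.05, and all lay between -0.47 and 0.41. Of 25 genes of nutrient signalling upstream of ULK1, 1 was lower at an unadjusted p under 0.05 in limma: Flcn, a regulator of the lysosomal mTORC1 and TFEB pathway, at 18.7, 12.4 and 25.6 RPKM in wild type against 11.7, 8.90 and 7.18 RPKM in knockout. Of 17 fusion genes, Arl8a, a GTPase that positions lysosomes, was lower, at 15.1, 17.2 and 15.4 RPKM against 7.85, 12.6 and 5.30 RPKM. Of 12 tested receptor genes, Phb2, a mitochondrial inner membrane protein that also serves as a mitophagy receptor, was higher, at 13.1, 23.2 and 23.3 RPKM against 25.9, 33.1 and 33.0 RPKM. Their limma adjusted p were 0.578, 0.589 and 0.633. Of 18 further autophagosome formation genes and 10 further transcription regulators, 0 had an unadjusted p under 0.05 in limma, and the medians were -0.05 and -0.27.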

How the data were processed

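RNA of 6 libraries, 3 per genotype, was analysed from a single deposited table. Subread, featureCounts, edgeR and limma are named, with the build mm10, per the submitters' processing notes; their versions, their order and any filter on genes were not given in the sources used here. Deposited values of the libraries are RPKM, a unit found from the values: multiplied by the exonic lengths of GENCODE M21, the values of 11104 of 15465 genes (71.8%) were whole multiples of 1 step in all libraries, within 0.02 reads. The reads of the other genes are estimates. The deposited comparison gives a log2 fold change, a p-value and its adjusted form from a test that the headers do not name.

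The test was limma 3.58.1 (R 4.3.3) on log2(RPKM + 0.5), which understates the change of low genes, with a variance trend, genotype as the term, genes at or above 1 RPKM in at least 3 libraries and Benjamini-Hochberg adjustment over all of them. Python 3.11.15 was used for the rest. The fit was tested on simulated data. Alternatives were a pseudocount of 0.1 or 1, no filter, a filter at 5 RPKM, quantile and median-of-ratios scaling, no variance trend, limma-voom, a replicate block and leaving out each library. The members and lists were chosen with earlier results of these data known. Values in every library are given for members with an unadjusted p under 0.05 or no overlap and for 9 fixed members, others where they help; of other lists, at most 4 genes with the smallest p. Gene names were matched exactly, and 3 list genes by an older name. A planned comparison of protein sequences was not run.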

Additional observations from a re-analysis of the deposited data

How the results depend on the processing

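Under each of the 15 alternatives, 0 members had an adjusted p under 0.05. Over all genes, limma-voom called 8 in place of 0, and without 1 library at a time the count ran from 0 to 1. The count of members at an unadjusted p under 0.05, which was 1, was 0 without the variance trend and 2 in limma-voom, and it ran from 0 to 3 without 1 library at a time. Non-overlapping members, 5 in all libraries, numbered 5 to 12 with 1 library fewer, where fewer values have to be separated. The member median of -0.10 ran from -0.13 to -0.06, the 14 other pathway genes at an unadjusted p under 0.05 from 7 to 16, and the 9 lower lysosomal genes, whose alternatives were added after the data were seen, from 4 to 8. Of the 13 members followed singly, 190 of 194 values kept their sign; without 1 library at a time Map1lc3b ran from -0.23 to 0.06 and Ulk1 from -0.40 to 0.01, where Map1lc3b turned to 0.06 without knockout replicate 1 and 0.05 without wild type replicate 1, and Ulk1 to 0.01 without knockout replicate 3 and to 0.01 without wild type replicate 2; the cause was not tested. Same-numbered libraries deviated together little across genes, with correlations of 0.02, 0.06 and 0.05, against -0.08 to 0.04 for differently numbered ones. These values cannot settle whether the numbers pair the libraries. With a replicate block, 0 genes passed, Lamp1 had an unadjusted limma p of 0.0334 and the lower lysosomal genes numbered 7. Low read counts limit Atg9a, with 0 to 229 reads per library, and Map1lc3a, with 3 to 148.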
